A study of Mus musculus with 16 samples.

Results

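Chemokine mRNAs of the inflamed brain were compared between cells sorted as microglia from mice with experimental autoimmune encephalomyelitis (EAE) and from PBS-treated mice. The group holds 10 genes, Ccl2, Ccl7, Ccl12, Ccl3, Ccl4, Ccl5, Cxcl10, Cxcl16, Cxcl12 and Cx3cl1, chosen by gene symbol, and all 10 had a row among the 21878 mRNAs of the tables. All 10 also passed the minimum of 16 counts over all libraries, as did 17885 mRNAs in all. The levels of 8 of the 10 were higher on average in EAE mice, against 52.7% of all mRNAs tested, with none of the 8 past an adjusted p of 0.05. By contrast, Cx3cl1, the neuronal chemokine, fell.

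The 16 mice were female wild-type C57BL/6 animals of 8 weeks, 8 in each group. EAE mice were immunized with a peptide of myelin oligodendrocyte glycoprotein (MOG) in complete Freund's adjuvant and received 200 ng of pertussis toxin on days 0, 2 and 7. PBS-treated mice, per the methods, were injected with PBS on the same schedule, so antigen, adjuvant and toxin all differ between the groups and their parts cannot be told apart. Brains were taken on day 14, at the peak of disease, and CD11b+/CD45int cells were sorted for 1 stranded total RNA library per mouse. The protocol gives MOG residues 35 to 55, whereas the treatment field of the labels counts the last residue upward from 55 in EAE 1 to 62 in EAE 8. The labels give 200 µg of MOG peptide for each EAE sample, whereas the methods of the paper name 1 mg in the emulsion.

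Total counts were 24587443 to 30244215 per library in EAE mice, against 26031889 to 34184576 in PBS-treated mice. The labelled cell type was checked against marker genes. The summed FPKM (read fragments scaled to transcript length and library size) of 14 microglia markers was 146 to 243 in EAE libraries, against 128 to 224 in PBS libraries. That of 10 neuron markers was 1003 to 1174 and 1142 to 1250, and that of 8 astrocyte markers was 1166 to 1782 and 1357 to 1610, respectively. Markers of neurons and astrocytes were therefore abundant in libraries labelled microglia, and the levels below are those of such mixed RNA. Libraries were also unequally alike. The squared difference between 2 libraries, relative to counting noise, was 3.07 to 3.64 among EAE 6, EAE 7 and EAE 8 and 3.27 to 4.09 among PBS 5, PBS 7 and PBS 8, but 6.28 to 26.5 for other pairs of EAE libraries and 7.60 to 25.4 for other pairs of PBS libraries. No batch is named in the labels or methods, and results are given below for all libraries and within these 6 and the other 10.

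Chemokines guide leukocytes by binding G protein-coupled receptors on their surface. Ccl2, Ccl7, Ccl12, Ccl3, Ccl4, Ccl5 and Cxcl10 are called inducible here, since cytokines such as TNF, IL-1 and interferons switch on their transcription in activated glia and macrophages. CXCL12 and CX3CL1 are different, being made constitutively in brain, the former by vascular and meningeal cells and some neurons, and the latter mainly by neurons as a membrane-bound ligand for the microglial receptor CX3CR1.

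In the RefSeq annotation of GRCm38.p6, the 6 CC chemokine genes lie on chromosome 11 in 2 clusters. Ccl2 (chr11:82035577-82037452), Ccl7 (chr11:82045712-82047525) and Ccl12 (chr11:82101845-82103399) lie on the plus strand, with Ccl11 between Ccl7 and Ccl12. Ccl5 (chr11:83525778-83530518, minus strand), Ccl3 (chr11:83647843-83649378, minus strand) and Ccl4 (chr11:83648624-83664683, plus strand) form the other, with Ccl9 and Ccl6 between Ccl5 and Ccl3. Cxcl16 (chr11:70454389-70459984, minus strand) is on the same chromosome apart from both. Cxcl10 (chr5:92346638-92348889, minus strand), Cxcl12 (chr6:117168535-117181368, plus strand) and Cx3cl1 (chr8:94772180-94782427, plus strand) are elsewhere. The RefSeq genes Ccl3 and Ccl4 overlap on opposite strands, Cxcl10 lies within Art3, and Cxcl16 overlaps Zmynd15. Ccl5 and Cx3cl1 each overlap a long noncoding RNA gene. The strand setting of the counting is not given in the sources used here. For the overlapping protein-coding genes outside the group, log2FC was 0.19 for Art3 (SE 0.22, edgeR adjusted p = 0.704) and 0.17 for Zmynd15 (SE 0.33, edgeR adjusted p = 0.842).

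The sequence in front of a gene shows which letters known to bind inflammatory transcription factors stand there. RefSeq windows of 250 bases upstream of the start (GRCm38.p6) were matched for 5 of the 10 genes, namely Ccl12, Ccl3, Cxcl10, Cxcl12 and Cx3cl1, and 4 motifs were searched on both strands. These were an NF-kappaB motif (GGG, any 3 bases, TTCC), found in 4.65% of all 32851 windows, and the interferon-stimulated response element (TTTC, any 2 bases, TTTC), found in 2.98%. The gamma-activated site (TTC, any 3 bases, GAA) was found in 7.02% and the TATA box (TATAAA) in 12.4%. The windows of 3 inducible genes and of the constitutive Cxcl12 are shown from 5′ to 3′ on each gene's own strand, with matches in capitals. They are chr5:92348890-92349139, chr11:82101595-82101844, chr11:83649379-83649628 and chr6:117168285-117168534, respectively.
Cxcl10: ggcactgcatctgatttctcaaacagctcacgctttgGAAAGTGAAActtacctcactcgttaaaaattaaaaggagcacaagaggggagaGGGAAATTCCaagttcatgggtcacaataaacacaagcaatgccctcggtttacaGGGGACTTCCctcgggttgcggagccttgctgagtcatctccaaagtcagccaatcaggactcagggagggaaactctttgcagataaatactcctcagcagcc
Ccl12: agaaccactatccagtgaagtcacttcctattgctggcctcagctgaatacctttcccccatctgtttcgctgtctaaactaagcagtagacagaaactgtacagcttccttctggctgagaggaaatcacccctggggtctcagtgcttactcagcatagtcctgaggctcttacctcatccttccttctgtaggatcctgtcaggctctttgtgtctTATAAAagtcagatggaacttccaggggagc
Ccl3: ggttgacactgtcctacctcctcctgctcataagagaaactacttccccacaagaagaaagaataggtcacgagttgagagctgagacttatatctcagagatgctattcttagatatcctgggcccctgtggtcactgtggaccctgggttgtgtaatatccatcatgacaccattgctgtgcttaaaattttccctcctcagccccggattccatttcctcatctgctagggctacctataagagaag
Cxcl12: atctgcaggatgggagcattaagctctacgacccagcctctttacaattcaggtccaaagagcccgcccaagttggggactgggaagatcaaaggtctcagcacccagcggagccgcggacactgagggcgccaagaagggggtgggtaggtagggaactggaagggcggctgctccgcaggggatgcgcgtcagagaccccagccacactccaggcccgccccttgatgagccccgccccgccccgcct
The Cxcl10 window held 2 matches to the NF-kappaB motif, GGGAAATTCC from 159 to 150 bases and GGGGACTTCC from 104 to 95 bases upstream of the start. It also held 1 match to the interferon motif on the opposite strand, GAAAGTGAAA from 213 to 204 bases upstream. The Ccl12 window held a TATA box from 31 to 26 bases upstream. The windows of Ccl3 and Cxcl12 held none of the 4 motifs as spelled here, and the Cx3cl1 window held only TATAAA, from 6 to 1 bases upstream of the RefSeq start. The remaining genes, Ccl2, Ccl4, Ccl5, Ccl7 and Cxcl16, had no window in the table.

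In EAE mice the inducible chemokines were higher on average by 1.39-fold for Ccl7 to 3.64-fold for Cxcl10 in mean FPKM, but with a large spread between mice. With all 16 libraries, edgeR's quasi-likelihood test called none of the 10 genes, where a call needs an adjusted p under 0.05 and a |log2FC| over 1. Over all mRNAs tested, 0.0951% were called higher and 0.0224% lower. Without the fold threshold, Cx3cl1 was lower and 0 genes were higher, against 1.76% of all mRNAs lower and 0.654% higher. At an unadjusted p under 0.05, 6 of the 10 genes were higher and 1 was lower, against 7.92% and 9.52% of all mRNAs. The median log2FC was 1.08 over the 7 inducible genes and 0.90 over all 10, compared with 0.009 over all mRNAs tested. DESeq2 also called 0 of the 10, with 0.129% of all mRNAs called higher. It gave an adjusted p under 0.05 for Ccl5 (0.0193) and Cxcl16 (0.0157), which were higher, and for Cx3cl1, against 1.67% of all mRNAs higher and 3.42% lower. The exact test of edgeR called Ccl3 (adjusted p = 0.0472) and Ccl4 (adjusted p = 0.0315), with 0.246% of all mRNAs called higher. In bulk RNA, more cells making a chemokine and more RNA per cell cannot be told apart.

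**Figure D1:**
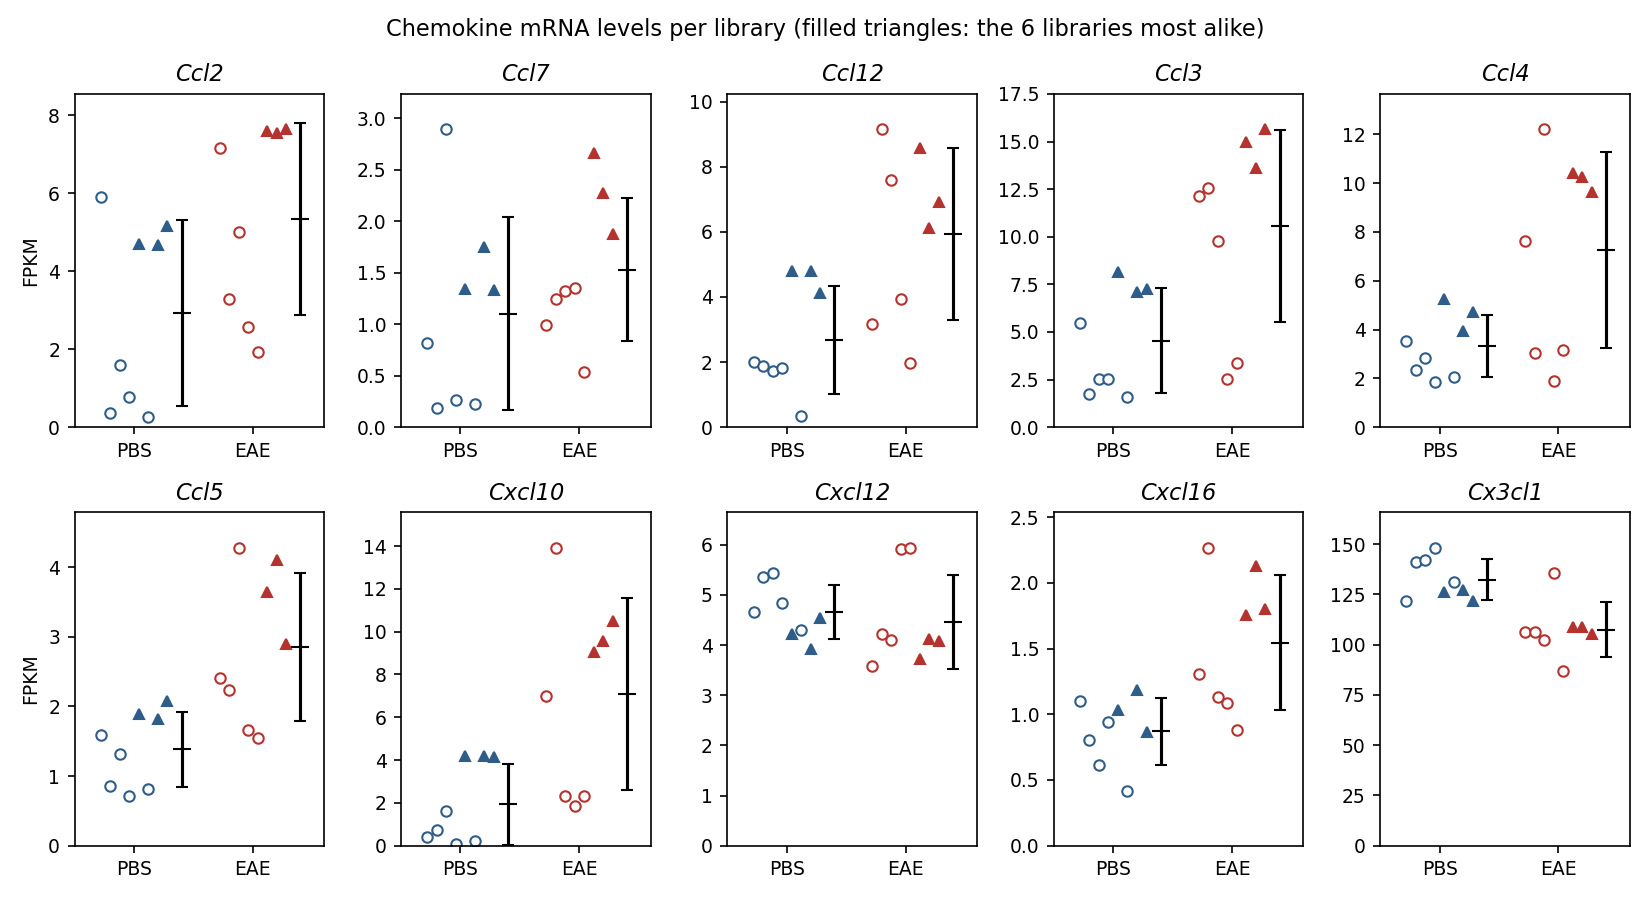
FPKM of each of the 10 chemokine mRNAs in the 8 PBS and 8 EAE libraries (1 point per library, linear axis from 0), with the mean and SD of each group in black. Filled triangles are PBS 5, 7 and 8 and EAE 6, 7 and 8, the 6 libraries most alike. The groups overlap in every panel, and the EAE triangles lie above the PBS triangles for all genes but Cxcl12 and Cx3cl1.

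The ligands of CCR2, which draw monocytes out of the blood, differed in how far they separated the groups. Ccl2 ranged in FPKM from 1.93 to 7.64 in EAE libraries (median 6.08), against 0.267 to 5.91 in PBS libraries (median 3.14). The PBS libraries fell apart into 4 below the lowest EAE library and 4 at 4.68 or above, so that the groups overlapped widely. The log2FC, the log2 of the EAE level over the PBS level, was 0.82 for Ccl2 (SE 0.47, edgeR adjusted p = 0.389). Ccl7, which also signals through CCR1 and CCR3, stood at 1.53 ± 0.695 FPKM (SD, n = 8) in EAE mice, against 1.10 ± 0.936 in PBS-treated mice. The groups overlapped for all 10 genes (0.162% of all mRNAs were higher and 0.101% lower without overlap), and for Ccl7 the highest library was a PBS library, PBS 3 at 2.89, with a log2FC of 0.42, smaller than its SE of 0.45 (edgeR adjusted p = 0.681). With 5 to 63 counts per library, Ccl7 was also thinly covered. Ccl12, a mouse CCR2 ligand with no human counterpart of that name, had the clearest difference of the 3. It ranged from 1.97 to 9.15 FPKM in EAE libraries (median 6.52), against 0.335 to 4.80 in PBS libraries (median 1.94). All 8 EAE libraries were above the PBS median and 5 were above the highest PBS library. Its log2FC was 1.08 (SE 0.37, edgeR adjusted p = 0.125), and the exact permutation test of mean FPKM over all 12870 divisions of the libraries gave an unadjusted two-sided p of 0.0127.

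Ccl3, Ccl4 and Ccl5, which attract T cells and macrophages, were all about 1 log2 unit higher on average in EAE mice. Ccl3 (MIP-1 alpha) was the highest inducible chemokine in EAE mice, with 2.53 to 15.6 FPKM (median 12.3), against 1.59 to 8.13 (median 4.004) in PBS-treated mice. The EAE libraries formed 2 levels, since 6 of them were above every PBS library while EAE 4 (2.53) and EAE 5 (3.39) were below the PBS median. Ccl4 (MIP-1 beta) ranged from 1.88 to 12.2 (median 8.61) in EAE libraries, against 1.85 to 5.27 (median 3.18) in PBS libraries. Again EAE 4 and EAE 5 were low, here with EAE 2 (3.04), and the other 5 EAE libraries were above all PBS libraries. Ccl5 (RANTES), a product of T cells and of interferon-stimulated glia, was less abundant at 2.85 ± 1.06 FPKM (SD, n = 8) and 1.38 ± 0.538, from 11 to 60 counts per library. For Ccl5 all 8 EAE libraries exceeded the PBS median and 6 exceeded the highest PBS library. The log2FC was 1.16 for Ccl3 (SE 0.37, edgeR adjusted p = 0.0993), 1.08 for Ccl4 (SE 0.33, adjusted p = 0.0812) and 0.98 for Ccl5 (SE 0.28, adjusted p = 0.0646). Exact permutation tests of mean FPKM gave unadjusted p-values of 0.0121, 0.0224 and 0.00357, respectively.

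Cxcl10 (IP-10), the interferon-induced ligand of CXCR3 on activated T cells, had the largest log2FC of the 10 genes and, relative to its mean, the largest SD in both groups. Its FPKM ranged from 1.85 to 13.9 in EAE libraries (median 8.02), against 0.0948 to 4.17 in PBS libraries (median 1.18). In counts this was 53 to 400 against 3 to 157. All 8 EAE libraries were above the PBS median, whereas EAE 3, EAE 4 and EAE 5 (1.85 to 2.34 FPKM) were below PBS 5, PBS 7 and PBS 8 (4.12 to 4.17 FPKM). The log2FC was 1.79 (SE 0.55, edgeR adjusted p = 0.0882), with an unadjusted exact permutation p of 0.0117 for mean FPKM. Cxcl16 is made as a membrane-bound protein by macrophages and binds CXCR6 on T cells. Its FPKM was 0.880 to 2.27 in EAE libraries (median 1.53), against 0.413 to 1.18 in PBS libraries (median 0.901). In 7 of 8 EAE libraries it exceeded the PBS median, and in 5 it exceeded every PBS library. Its log2FC was 0.77 (SE 0.22, edgeR adjusted p = 0.0634), and the exact permutation p for mean FPKM was 0.00497.

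**Figure D2:**
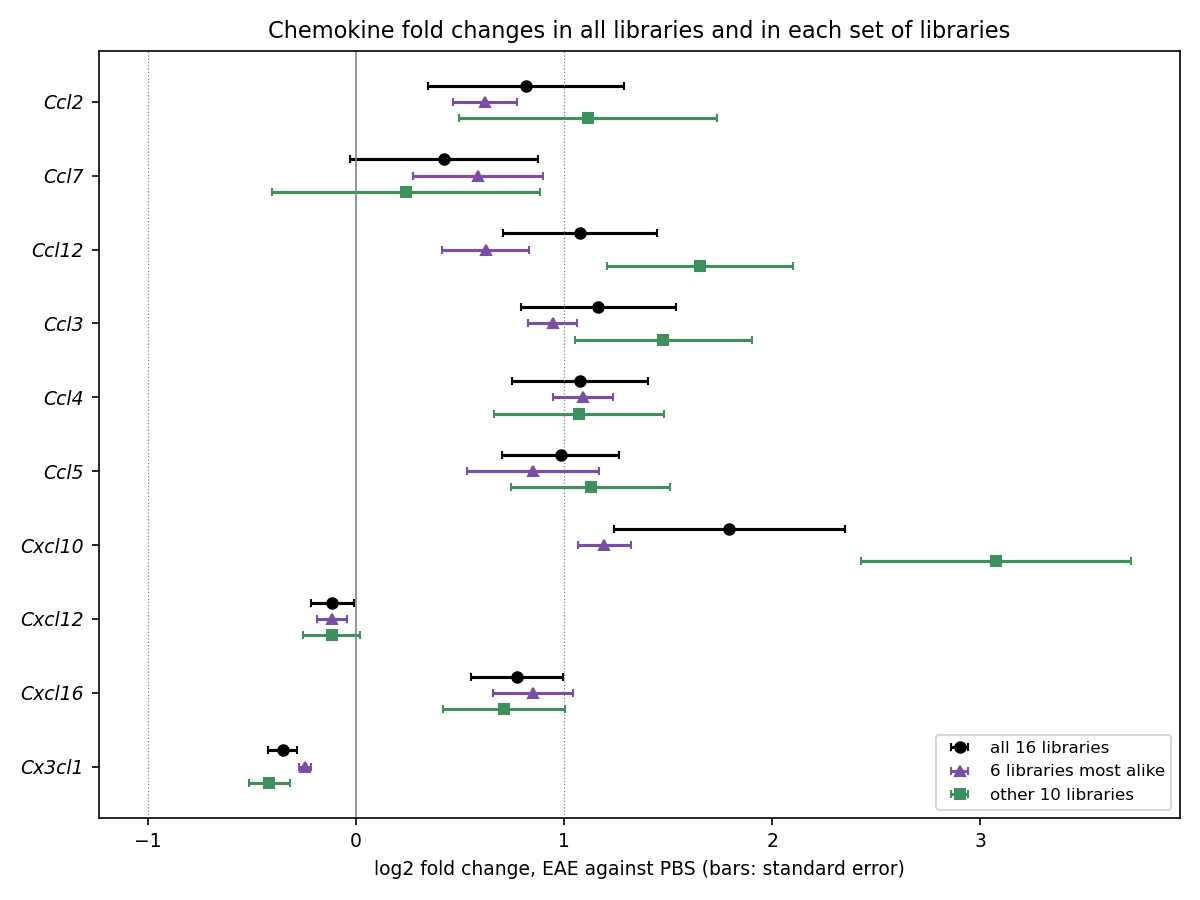
log2 fold change of each chemokine mRNA in EAE against PBS libraries from edgeR, with its standard error, in all 16 libraries (circles), in the 6 libraries most alike (triangles) and in the other 10 (squares). Dotted lines mark log2FC of 1 and -1. The sign of each gene is the same in all 3 fits, and Cxcl10 ranges from 1.19 to 3.07.

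The constitutive chemokines did not share the direction of the inducible ones. Cxcl12 (SDF-1), the ligand of CXCR4 that holds leukocytes at vessels and guides neurons, stood at 4.46 ± 0.932 FPKM (SD, n = 8) in EAE mice, against 4.66 ± 0.539 in PBS-treated mice. The libraries EAE 4 and EAE 5, at 5.93 and 5.94, were above every PBS library, and the other 6 EAE libraries, at 3.59 to 4.22, were below the PBS median of 4.59. The log2FC of Cxcl12 was -0.11 (SE 0.10, edgeR adjusted p = 0.624). Without EAE 4 and EAE 5 it was -0.28 (edgeR adjusted p = 0.0211), against 7.79% of all mRNAs lower at that threshold, so this value rests on those libraries.

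Cx3cl1 (fractalkine) fell in EAE mice. Its FPKM ranged from 86.7 to 135.9 in EAE libraries (median 106), against 121.5 to 148 in PBS libraries (median 129). In 7 of 8 EAE libraries it was below the lowest PBS library, and EAE 4 was the exception. The means were 108 ± 13.5 (SD, n = 8) and 132 ± 10.2, with a log2FC of -0.35 (SE 0.07, edgeR adjusted p = 0.0115). The adjusted p stayed under 0.05 in 16 of 16 edgeR fits that each left out 1 library, with a highest value of 0.0314. The exact permutation test of mean FPKM gave p = 0.00124, unadjusted. Beside this, the summed FPKM of the 10 neuron markers was 1100 ± 56.8 (SD, n = 8) in EAE mice, against 1191 ± 38.8 in PBS-treated mice (exact permutation p = 0.00171), so it was lower as well. Cx3cl1 relative to that sum was 0.0976 ± 0.00878 in EAE mice, against 0.111 ± 0.00581 in PBS-treated mice, and the exact permutation test of this ratio, chosen after the values were seen, gave p = 0.00357. The markers did not move alike, as mean FPKM was 39.8 against 55.6 for Gad1, 191 against 224 for Syt1 and 20.4 against 19.5 for Rbfox3 in EAE and PBS-treated mice. The ratio thus depends on which markers are summed, and the part of neuronal RNA in the difference was not tested.

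In both groups Cx3cl1 was far above every other gene of the set in FPKM, which is a level per transcript length. It made up 63.3% to 85.6% of the summed FPKM of the 10 genes in EAE libraries, against 78.0% to 92.8% in PBS libraries. Next in PBS-treated mice came Cxcl12 at 4.66, then Ccl3, Ccl4, Ccl2, Ccl12, Cxcl10, Ccl5, Ccl7 and, at 0.869, Cxcl16. In EAE mice the order after Cx3cl1 was Ccl3 at 10.6, then Ccl4, Cxcl10, Ccl12, Ccl2, Cxcl12, Ccl5, Cxcl16 and, at 1.53, Ccl7. Apart from Cx3cl1, the mean ± SD of each gene overlapped that of its neighbour in these orders. Cxcl10 was at 0.665 ± 0.238 of the level of Ccl3 in EAE mice, against 0.372 ± 0.250 in PBS-treated mice (SD, n = 8), and these ranges overlapped too.

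**Figure D3:**
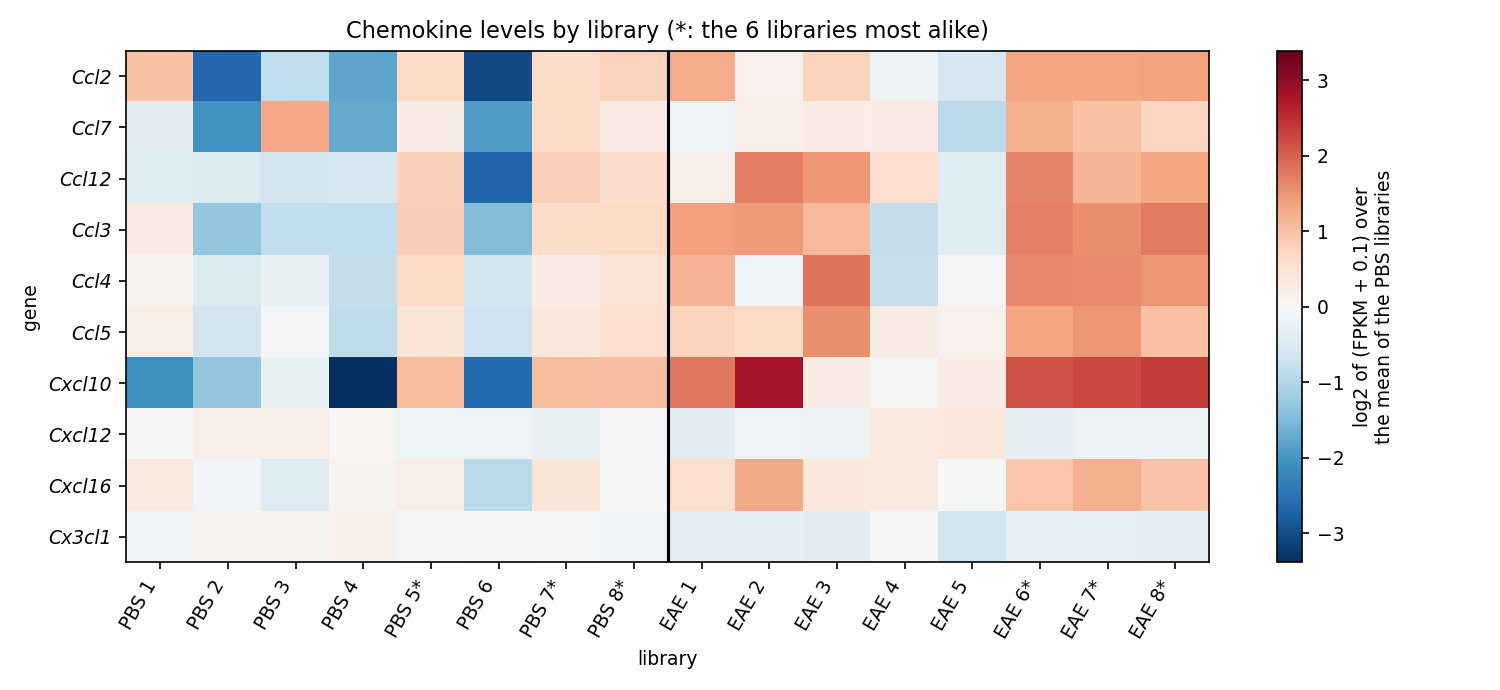
Level of each chemokine mRNA in each library, as log2 of (FPKM + 0.1) relative to the mean of the 8 PBS libraries, with red for higher and blue for lower. Asterisks mark the 6 libraries most alike. Inducible genes are high together in EAE 6, 7 and 8 and low together in PBS 2, 4 and 6. For these genes EAE 4 and EAE 5 lie within the range of PBS libraries. For Cxcl12 both lie above that range, and for Cx3cl1 EAE 5 lies below it.

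The summed chemokine levels differed between the sets of libraries as well as between the treatments. Summed over the 7 inducible genes, FPKM was 53.5 to 56.9 in EAE 6, EAE 7 and EAE 8, 40.5 to 45.4 in EAE 1, EAE 2 and EAE 3, and 15.8 and 14.9 in EAE 4 and EAE 5. In PBS-treated mice it was 28.3 to 30.3 in PBS 5, PBS 7 and PBS 8 and 5.53 to 19.7 in the other 5. Thus EAE 4 and EAE 5 were below 4 of the 8 PBS libraries. For Ccl12, Ccl3, Ccl4, Ccl5 and Cxcl10, the libraries PBS 5, PBS 7 and PBS 8 were all above the other 5 PBS libraries, a pattern that 6.9% of all mRNAs tested had. In EAE mice the sets did not separate each of the 7 genes. The highest EAE library was EAE 2 for Ccl12 (9.15 FPKM) and Cxcl10 (13.9), and EAE 3 for Ccl4 (12.2) and Ccl5 (4.28). For Ccl2, Ccl7 and Ccl3 it was EAE 6 or EAE 8.

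Within the 6 libraries most alike, 8 of the 10 genes were higher in every EAE library than in every PBS library and Cx3cl1 was lower in every one. Of all mRNAs tested, 21.5% were higher and 15.5% lower in this way. In this set edgeR called Ccl4 (log2FC 1.09, adjusted p = 4.5e-06) and Cxcl10 (log2FC 1.19, adjusted p = 2.4e-07), where 0.603% of all mRNAs were called higher. These 6 libraries were chosen for small differences within each group, so the spread used by these tests is small by that choice. The SE was 0.14 for Ccl4 and 0.13 for Cxcl10, against 0.41 and 0.65 in the other 10 libraries. Ccl2, Ccl12, Ccl3 and Cxcl16 were higher with an adjusted p under 0.05 and a log2FC of 0.62 to 0.95, against 11% of all mRNAs higher at that threshold. Ccl5 had a log2FC of 0.85 (edgeR adjusted p = 0.0533) and Ccl7 of 0.59 (adjusted p = 0.185). In the other 10 libraries, edgeR called 0 of the 10 genes and 0 had an adjusted p under 0.05, with 6 higher and 1 lower at an unadjusted p under 0.05. There, 0.0286% of all mRNAs were called higher, 0.0458% were higher and 0.0286% lower at an adjusted p under 0.05, and 4.12% were higher and 6.71% lower at an unadjusted one. The log2FC of Cxcl10 was 3.07 in these 10 libraries (SE 0.65, edgeR adjusted p = 0.108) and 1.89 smaller in the 6 most alike (SE of the difference 0.81, unadjusted p = 0.0292 and adjusted p = 0.573 for the interaction in edgeR). For the other 9 genes, the unadjusted interaction p in edgeR was 0.0938 or more. Over all mRNAs, 8.03% had an unadjusted interaction p under 0.05 and 0.0615% an adjusted one. With a term for the sets in the edgeR model, Ccl12, Ccl3, Ccl4, Ccl5 and Cxcl10 were called (adjusted p = 0.00931 to 0.0262), against 0.19% of all mRNAs called higher.

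Calls also depended on EAE 4 and EAE 5. Without EAE 4, edgeR called Ccl3, Ccl4, Ccl5 and Cxcl10, with log2FC values of 1.31, 1.22, 1.07 and 1.94 (adjusted p = 0.0129 to 0.0328), where 0.252% of all mRNAs were called higher. Without EAE 5 it called Ccl12 as well, and all 5 had an adjusted p of 0.0302 to 0.0493, against 0.135% of all mRNAs. Leaving out any other single library gave 0 calls. Without both, edgeR called the same 5 genes, where 0.394% of all mRNAs were called higher. EAE 4 and EAE 5 were singled out after their low chemokine levels were seen. Leaving out either or both therefore raises these fold changes by that choice. The shares of all mRNAs are then no fair comparison, and these calls are no support for a difference. Blocking on replicate number, with all libraries, edgeR called Cxcl10 alone, against 0.0839%.

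The libraries with low chemokine levels also differed in markers of other cells. The summed FPKM of 8 choroid plexus and ependymal markers, mostly Ttr, was 148 in EAE 4 and 118 in EAE 5 but 84.1 to 91.5 in the other 6 EAE libraries. It was 101 to 105 in PBS 5, PBS 7 and PBS 8 and 150 to 243 in the other 5 PBS libraries, so that chemokines were high where these markers were low. Ttr, the transport protein transthyretin, fell in EAE mice with a log2FC of -0.88 (edgeR adjusted p = 0.0163). The sum of 10 neutrophil markers was 49.6 to 101 in EAE libraries, against 19.3 to 57.6 in PBS libraries, and 4 of the 10 were called higher, against 0.0951% of all mRNAs tested. EAE 6, EAE 7 and EAE 8 stood at 94.3 to 101 of this sum and EAE 4 and EAE 5 at 50.0 and 59.1. The lowest was EAE 2 at 49.6, a library with a high chemokine sum of 45.4. The sum of the 14 microglia markers was 146 to 156 in EAE 6, EAE 7 and EAE 8 and 208 to 243 in the other 5 EAE libraries. Monocyte markers (8 genes) summed to 22.0 to 26.6 and 18.7 to 24.1, and 11 T or NK cell markers to 2.68 to 4.32 and 2.33 to 3.26. EAE 4 and EAE 5 were also high in astrocyte, oligodendrocyte and mural cell markers. Astrocyte markers summed to 1577 and 1782 in these libraries and to 1166 to 1319 in the other 6 EAE libraries, and 8 oligodendrocyte markers to 1143 and 1307, against 932 to 1029. For 8 mural cell markers the sums were 54.7 and 57.2, against 39.3 to 45.2. Among PBS libraries the mural sum went the other way, at 42.1 in PBS 4 and 43.0 in PBS 6 and 50.6 to 56.4 in the rest. The sum of 8 endothelial markers was 52.3 in EAE 4 and 66.4 in EAE 5, against 43.1 to 57.6 in the other 6 EAE libraries. The part of these cells in the chemokine levels was not tested.

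**Figure D4:**
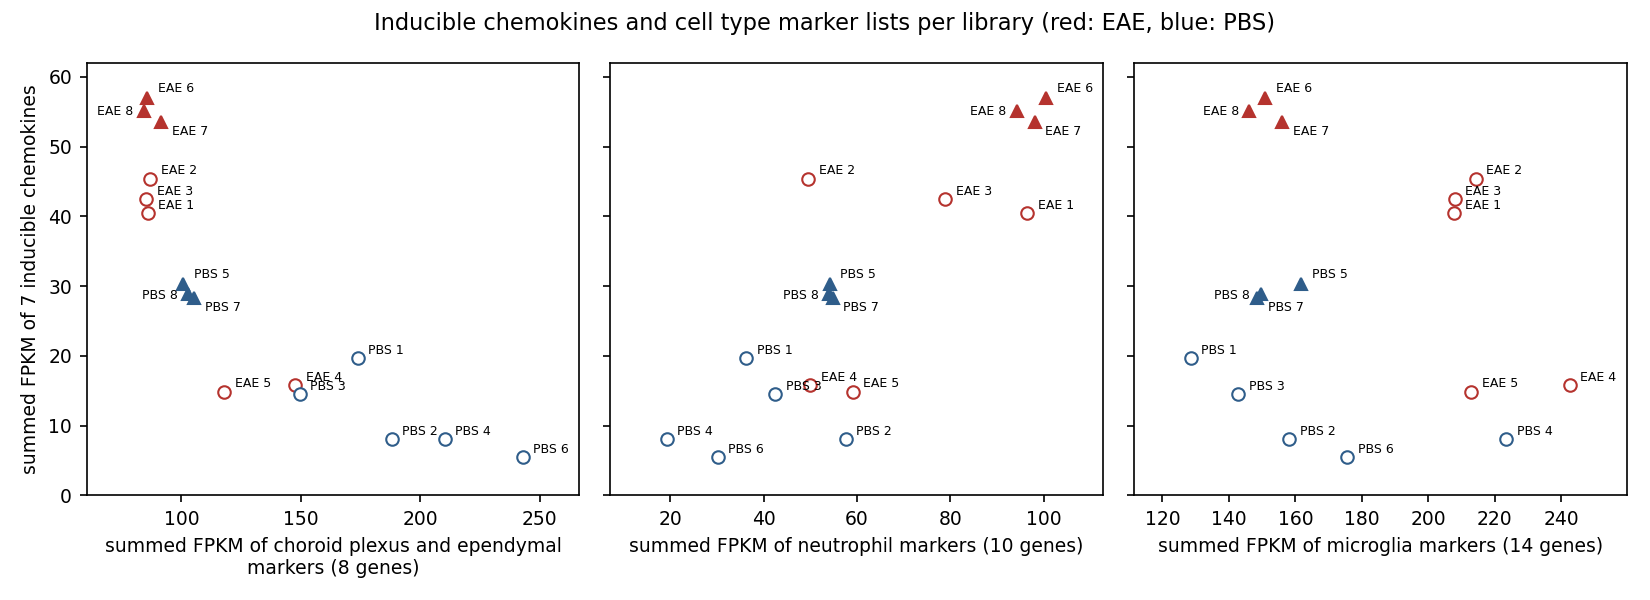
Summed FPKM of the 7 inducible chemokines in each library (vertical axis) against summed FPKM of choroid plexus and ependymal, neutrophil and microglia markers (horizontal axes), with 1 point per library, EAE in red and PBS in blue, and the 6 libraries most alike as filled triangles. The 9 libraries with a chemokine sum of 28.3 or more have a choroid plexus and ependymal sum of at most 105.4, and the other 7 one of 118 or more.

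The receptors that these chemokines bind showed 0 of 12 genes past an adjusted p of 0.05 in edgeR, with 2 higher at an unadjusted p under 0.05. Among 17885 mRNAs, 0.654% were higher and 1.76% lower at the adjusted threshold, and 7.92% were higher at the unadjusted one. Ackr1, an atypical receptor that takes up many inflammatory chemokines, was the most abundant at 29.8 ± 5.63 FPKM (SD, n = 8) in EAE mice, against 31.6 ± 4.15 in PBS-treated mice. Cx3cr1, the microglial receptor of CX3CL1, stood at 13.7 ± 3.81 and 10.2 ± 3.57, with a log2FC of 0.37 (SE 0.19, edgeR adjusted p = 0.310). Whereas its ligand was lower in 7 of 8 EAE libraries, its own ranges of 7.04 to 19.4 and 6.10 to 17.7 almost coincided. Ackr3, which scavenges CXCL12, was at 4.96 ± 0.777 and 4.64 ± 0.837, and Cxcr4 at 1.36 ± 0.612 and 1.47 ± 0.582. Cxcr6, the receptor of CXCL16, was at 1.57 ± 0.265 and 1.39 ± 0.315. Ccr1 had the largest log2FC of the receptors, 0.71 (SE 0.26, edgeR adjusted p = 0.144), from 0.702 ± 0.134 against 0.412 ± 0.187 FPKM. Ackr4 followed with 0.42 (SE 0.15, edgeR adjusted p = 0.137), and the scavenger Ackr2 was at 0.778 ± 0.193 and 0.836 ± 0.239 FPKM. Ccr2, Ccr3 and Cxcr3 had the lowest mean FPKM of the 12 receptors in both groups. Ccr2 was at 0.427 ± 0.152 and 0.304 ± 0.112 FPKM, Ccr3 had at most 22 counts in a library, and Cxcr3, the receptor of CXCL10, was at 0 in 5 EAE and 4 PBS libraries with at most 7 counts.

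Among 28 other chemokines, 22 were tested and Ccl9 passed an adjusted p of 0.05, against 0.654% of all mRNAs higher and 1.76% lower. Ccl9, a CCR1 ligand of myeloid cells encoded between Ccl5 and Ccl3, rose from 0.810 ± 0.227 to 1.41 ± 0.241 FPKM (SD, n = 8). Its log2FC was 0.74 (SE 0.17, edgeR adjusted p = 0.0276), with an adjusted p under 0.05 in 11 of 16 fits that left out 1 library and a highest value of 0.0626. Of the rest, Cxcl3, Cxcl9, Ccl8, Ccl24 and Ppbp had a |log2FC| over 1 but an adjusted p of 0.0772 or more, mostly from few reads. Ppbp, a platelet chemokine, had 0 to 4 counts in EAE libraries, against 1 to 12 in PBS libraries, and Cxcl9, the other interferon-induced CXCR3 ligand tested, had 0 to 10 and 0 to 3. Of 8 other receptors tested, 0 passed an adjusted p of 0.05 in edgeR. Cxcr2, the neutrophil receptor, was higher at an unadjusted edgeR p of 0.0217, where 7.92% of all mRNAs were higher at an unadjusted p under 0.05. Among 6 proteases that cut chemokines, Dpp4, which trims the ends of CXCL10 and CXCL12, rose from 1.44 ± 0.0887 to 1.83 ± 0.163 FPKM (SD, n = 8). EAE libraries were all above PBS libraries for Dpp4, as for 0.162% of all mRNAs, and its log2FC was 0.29 (SE 0.07, edgeR adjusted p = 0.0356). Left out 1 library at a time, it had an adjusted p under 0.05 in 6 of 16 fits. Adam10 and Adam17, which shed CX3CL1 and CXCL16 from the cell surface, had log2FC values of -0.01 and -0.05. Mmp12, the macrophage elastase, had a log2FC of 1.97 (SE 0.77, edgeR adjusted p = 0.184) from 2 to 31 counts against 0 to 15.

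The listed cytokines that were tested, Tnf, Il1a, Il1b, Il6, Csf2, Il10 and Tgfb1, were higher on average too. All 7 were positive, against 52.7% of all mRNAs, and 0 passed an adjusted p of 0.05 in edgeR. Il10 and Tgfb1 are regulatory cytokines, so the list is not one of chemokine inducers alone. The median log2FC of the 7 was 0.95, and 2 were higher at an unadjusted p under 0.05, against 7.92% of all mRNAs. Ifng, Ifnb1 and Il17a had too few reads to be tested, so the count of 7 leaves them out. The mean FPKM of Ifng was 0.0117 in EAE mice, against 0.0350 in PBS-treated mice. Ifnb1 (0.0376 against 0) and Il17a (0.0558 against 0.00371) went the other way. Tnf ranged from 0.210 to 5.24 FPKM in EAE libraries (median 1.73), against 0.109 to 1.43 in PBS libraries (median 0.658). Il1a, made by activated microglia, ranged from 0.599 to 5.18 (median 3.10) and from 0.439 to 2.20 (median 1.02), with a log2FC of 1.19 (SE 0.39, edgeR adjusted p = 0.103). Both overlapped between the groups. Csf2, with a log2FC of 1.21 (SE 0.91, edgeR adjusted p = 0.532), had at most 12 counts in a library. The 10 receptors of these cytokines had a median log2FC of 0.03 and 0 past an adjusted p of 0.05. Over all 77 genes of these lists, 65 were tested, 45 were positive, against 52.7% of all mRNAs, and 2 were higher with an adjusted p under 0.05, against 0.654%.

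Within each group the inducible chemokines tended to go up and down together from mouse to mouse, less firmly so in EAE mice. Over the 21 pairs of the 7 inducible genes, Pearson's r of log2(CPM + 0.5), where CPM is the count scaled to library size, was positive for 21 in EAE mice (0.34 to 0.90, median 0.69, n = 8). It was also positive for 21 in PBS-treated mice (0.56 to 0.97, median 0.82, n = 8). The pairs share libraries and their cell mixture, and the 6 libraries most alike are part of both ranges. Without the 2 libraries farthest from the median of the first gene, r was positive for 18 pairs in EAE mice and 21 pairs in the PBS group. Of all 90 relations tested, the pair Ccl4 and Ccl5 in PBS-treated mice passed an adjusted p of 0.05 by both measures, with r = 0.97 (exact permutation, adjusted p = 0.0156) and rho = 0.98 (adjusted p = 0.0357), and r was 0.99 without the 2 libraries. Cxcl10 and Cxcl16 had r = 0.92 in EAE mice (exact permutation, adjusted p = 0.0275) and rho = 0.90 (adjusted p = 0.0685), but r = 0.39 in PBS-treated mice. Cxcl12 was negatively related to all 7 inducible genes in both groups, with r from -0.94 to -0.53 in EAE mice and from -0.60 to -0.09 in PBS-treated mice. For Ccl3 and Cxcl12 in EAE mice, r was -0.94 with all libraries and -0.12 without the 2 farthest, so it rests on those. Cx3cl1 was negatively related to all 7 in PBS-treated mice (-0.79 to -0.30), whereas in EAE mice the values ran from -0.24 to 0.44.

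**Figure D5:**
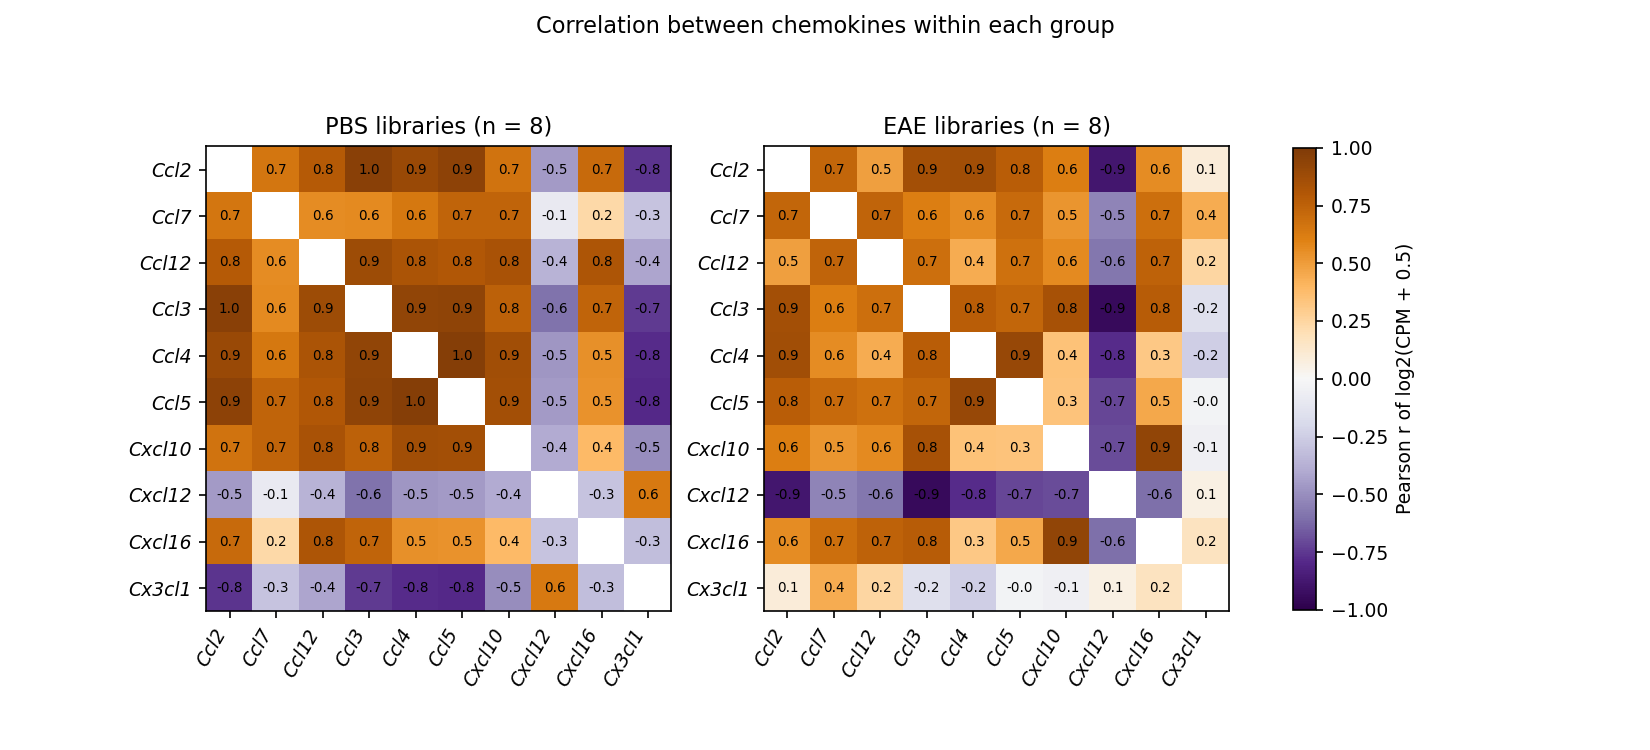
Pearson's r of log2(CPM + 0.5) between chemokine mRNAs within the 8 PBS libraries (left) and the 8 EAE libraries (right), with orange for positive and purple for negative values. Pairs of inducible genes are positive in both panels, and Cxcl12 is negative with each of them.

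The mRNAs whose levels were most like those of a chemokine were found among 14760 mRNAs, by the mean of the r values of the 2 groups (n = 8 each). For Cx3cl1 they included Ly6e (0.94) and Nptn, a synaptic adhesion protein (0.94). For Cxcl16 they were Ubr4 (0.89), Tenm4 (0.88) and Gsr (0.87), none of which had an adjusted p under 0.05 between the groups in edgeR. For Ccl5 they were Foxk1 (0.95), Ccl4 (0.94) and Iigp1, an interferon-inducible GTPase (0.93). Nptn had an adjusted p under 0.05 in edgeR, at a log2FC of -0.25 (SE 0.06, adjusted p = 0.0380). All r values named here are the highest among 14760 mRNAs, from 8 libraries per group. They were not tested, so they do not show shared regulation.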

How the data were processed

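RNA-seq libraries of 8 EAE and 8 PBS-treated mice were analysed. The authors aligned reads to GRCm38 with HISAT2 2.1.0 and counted them with HTSeq 0.11.2 (versions from the submitters' processing notes), and deposited raw counts per mRNA. The deposited FPKM values were proportional to counts per library total for each of 7749 mRNAs checked. Groups followed the labels, and whether replicates were processed in batches is not stated.

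Counts were tested with edgeR 4.0.16 (quasi-likelihood, TMM, R 4.3.3) for 17885 mRNAs with at least 16 counts in all, with Benjamini-Hochberg adjustment over these. On simulated counts of 17777 genes for this comparison, 97.0% of 200 genes changed by a log2FC of 1.5 were called. The simulated libraries had no sets that were more alike, and 1.5 is above the log2FC of every chemokine but Cxcl10. The 97.0% therefore does not apply to the chemokines. FPKM means were compared by exact permutation. A count of 0 allows up to 3 counts, or 0.0878 to 0.122 CPM, for counting error only. DESeq2 1.42.0, limma 3.58.1 and other settings were alternatives. The genes, lists and tests were chosen with earlier results of these data known. Named were the 10 chemokines, their receptors, list genes with an adjusted p under 0.05 or a |log2FC| over 1, and the 3 mRNAs most alike to each of the 3 chemokines with the smallest p. Same-numbered libraries were not paired in the labels, and their deviations correlated at -0.28 to 0.62, over 0.1 in 3 of 8 pairs. Protein sequences were not used here. A receptor and an mRNA that this rule names are not reported here.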

Additional observations from a re-analysis of the deposited data

Results flagged for a closer look

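Cx3cl1 in EAE 4, at 135.9 FPKM, stood apart from the other 7 EAE libraries, with a gap to the next library of 0.548 of the whole range of the group. Of 20 groups of 8 values examined in this way, for 10 chemokines in 2 treatments, this was the only 1 that stood out, and chance marks about 1 in 20. Without EAE 4, the log2FC of Cx3cl1 was -0.40 (adjusted p = 0.000727 from edgeR).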

How the results depend on the processing

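The number of chemokines called (0 with all libraries and settings as described) was 2 with edgeR's exact test, 1 with the replicate block (Cxcl10, adjusted p = 0.0499 from edgeR) and 0 to 5 when each library was left out in turn. Among alternatives chosen after seeing the data, it was 2 within the 6 libraries most alike, 5 with a term for the sets and 5 without EAE 4 and EAE 5. The number with an adjusted p under 0.05 (1) was 3 with DESeq2, 5 with the exact test, 2 with the replicate block and 1 to 7 without single libraries. It was 7 within the 6 libraries most alike, 0 within the other 10, 7 with the set term and 8 without EAE 4 and EAE 5. The number of list genes with an adjusted p under 0.05 (2) was 4 with DESeq2, 4 with the exact test, 1 with limma on log2(FPKM + 0.1) and 0 to 6 without single libraries. It was 18 within the 6 libraries most alike, 0 within the other 10, 4 with the set term and 11 without EAE 4 and EAE 5. The cause of these shifts was not tested. Same-numbered libraries share only a number, and 2 of 8 correlated best with their own. Of 300 alternative values of the 10 log2FC, 262 kept their direction and side of the threshold, 37 passed it newly, 1 no longer did (Cx3cl1 within the other 10 libraries) and 0 changed sign. Scaling by library totals alone moved the median log2FC of all mRNAs from 0.009 to 0.06. Counts under 70 per library limit Ccl5 and Ccl7.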

Other observations

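Chemokines that attract neutrophils varied widely between mice in both groups, and were noticed after their values were seen. Cxcl1 ranged from 0 to 155 counts in EAE libraries, against 5 to 179 in PBS libraries, and Cxcl2 from 1 to 295 and from 5 to 333. Cxcl3 had 0 counts in 3 libraries of each group and up to 211 and 138 in the others. The log2FC was -0.27 for Cxcl1 (SE 0.70, edgeR adjusted p = 0.881), 0.16 for Cxcl2 (SE 0.72, adjusted p = 0.939) and 1.07 for Cxcl3 (SE 0.98, adjusted p = 0.620).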
